A study of Homo sapiens with 8 samples.

Results

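The 44 interferon-stimulated and RNA-sensing genes described here were taken by gene name from a given list, and all 44 had at least 1 probe on the array, 59 probes among the 50599 probes and 36337 gene names in all. Their signals were read on 8 one-colour Agilent gene expression arrays of 2 human thyroid cell lines, 2 arrays per group. Nthy-ori 3-1 cells (ORI in the labels), an immortalized line of non-tumour thyroid follicular cells, were transfected with 5 nM premiR-375, a synthetic precursor that supplies the miRNA, or with its control. TT cells, derived from a medullary thyroid carcinoma with a RET mutation, chosen by the study as a line that makes miR-375, received 20 nM AntagomiR-375, an oligonucleotide that blocks the miRNA, or its control. Controls are labelled CTL only and were read from the study's methods as pre-miR-CTL and antagomiR-CTL. All cells went through 48 h of Lipofectamine RNAiMAX transfection, so every group carried a lipid reagent and a synthetic RNA, and untransfected cells were not analysed here. The methods call the replicates biological, and each is a sample of the same cell line.

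Cells recognise foreign RNA with cytosolic helicases (RIG-I, encoded by DDX58, and MDA5, encoded by IFIH1) and with the endosomal receptor TLR3. These sensors induce type I interferon such as IFNB1. Secreted interferon then acts through its receptor on a complex that holds STAT2 and IRF9, and this complex switches on the interferon-stimulated genes. Many of their products bind, cleave or modify RNA or block viral entry, and some restrain the response, as USP18 does at the receptor. Epithelial cells carry the same sensors and receptor, so they can mount this response without immune cells.

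The reagent and the DNA element that mark this system are shown before the values. The mature miRNA, hsa-miR-375-3p, lies at chr2:219001648-219001669 on the minus strand (RefSeq, GRCh38.p14), and its seed, bases 2 to 8, is in capitals.
hsa-miR-375-3p: uUUGUUCGuucggcucgcguga
The interferon-stimulated response element that STAT2 and IRF9 help to bind holds 2 GAAA blocks spaced by any 2 bases. GAAANNGAAA was searched on both strands (TTTCNNTTTC on the other) in RefSeq promoter windows of 300 bases, from 250 before to 50 after each start. Overlapping matches were counted separately. A window was found for 35 of the 44 genes (DDX58 under its current symbol RIGI), and 9 had no entry (IFIT2, IFITM2, MX2, OAS2, OASL, DHX58, IRF7, USP18 and TRIM22). The letters stood in the window of 24 of the 35 genes, 68.6%, against 1195 of 27305 gene symbols with a window, 4.38%. A match is a string of letters and not a shown binding site. Among genes with a window, 18 of the 24 that read higher on both premiR-375 arrays than on their paired controls held it, as did 4 of the 7 that read lower on both.

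The following stretches, 60 bases each unless stated, were chosen after the values were seen, 6 from genes that read higher with premiR-375 and the last 2 from genes that read lower. They are printed 5′ to 3′ on the gene's strand of GRCh38.p14, with the matched letters in capitals.
ISG15 (chr1:1013365-1013424, plus strand, 2 overlapping matches): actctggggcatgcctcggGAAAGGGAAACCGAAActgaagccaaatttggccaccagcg
IFITM3 (chr11:320861-320920, minus strand, 2 matches): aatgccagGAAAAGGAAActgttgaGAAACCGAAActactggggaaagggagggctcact
OAS3 (chr12:112938414-112938473, plus strand): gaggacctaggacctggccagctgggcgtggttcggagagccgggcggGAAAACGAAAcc
IFIH1 (chr2:162318685-162318744, minus strand): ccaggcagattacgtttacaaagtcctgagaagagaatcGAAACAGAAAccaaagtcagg
PARP14 (chr3:122680779-122680838, plus strand): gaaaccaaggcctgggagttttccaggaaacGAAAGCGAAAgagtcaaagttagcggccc
TLR3 (chr4:186069142-186069171, plus strand, 30 bases, the match on the opposite strand): caagctttacTTTCACTTTCgagagtgccg
PLSCR1 (chr3:146544652-146544711, minus strand): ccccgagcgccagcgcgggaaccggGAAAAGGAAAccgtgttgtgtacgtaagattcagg
SAMD9 (chr7:93118081-93118140, minus strand): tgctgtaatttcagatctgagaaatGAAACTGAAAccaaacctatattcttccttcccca
The letters were present in genes of either direction.

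Signals below are log2 values of background-subtracted intensity, quantile normalized over the 8 arrays, so that 1 unit is a 2-fold difference. An average of at least 6 over the 4 arrays of a line was called well measured and less was called dim. On the 8 arrays 51.6% to 61.1% of probes were well above background by the scanner software's own test, and the number of arrays limits the precision. CALCA, which encodes calcitonin and marks medullary carcinoma, read 18.49 to 18.61 in TT cells, and CHGA, which encodes chromogranin A, 16.71 to 17.00. In Nthy-ori 3-1 cells PAX8, a thyroid transcription factor, read 10.31 to 10.73, but TSHR was not well above background on any array, and TG was brighter in TT cells (9.13 to 9.20) than in Nthy-ori 3-1 cells (4.51 to 5.02). In Nthy-ori 3-1 cells CALCA read 3.91 and 3.57 in controls and 8.12 and 4.51 with premiR-375, and CHGA 3.46 and 2.09 against 4.91 and 5.13. Of 5 immune cell markers, PTPRC read 6.17 to 7.19 and CD14 8.09 to 9.51 over the 8 arrays, and CD14 read 8.71 and 8.14 in Nthy-ori 3-1 controls against 9.51 and 9.29 with premiR-375. What part CALCA, CHGA and CD14 signal has in the results below was not tested. SEC23A, a known miR-375 target, had a log2 change of -1.39 ± 0.12 (SE) with premiR-375 and of 0.65 ± 0.09 with AntagomiR-375. Arrays with equal replicate number in a line shared a slide and were treated as a pair.

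In Nthy-ori 3-1 cells 33 of the 44 genes were well measured and 11 dim. In TT cells 24 were well measured and 20 dim, and 10 were not well above background on any TT array. The well measured genes of both lines numbered 23, among them IFITM3, ISG15, IFITM2 and STAT2. Another 10 were well measured in Nthy-ori 3-1 cells only (IFIT2, IFIT3, IFITM1, MX1, MX2, OAS3, OASL, HERC5, SAMD9L and TLR3), and CMPK2 in TT cells only. Dim in both were OAS1, OAS2, RSAD2, IFI44L, HERC6, SAMD9, XAF1, TRIM22, GBP1 and IFNB1. IFNB1, the ligand itself, was not well above background on any of the 8 arrays (1.66 to 2.46). In bulk RNA, fewer cells that express a gene and less RNA per cell cannot be told apart.

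**Figure D1:**
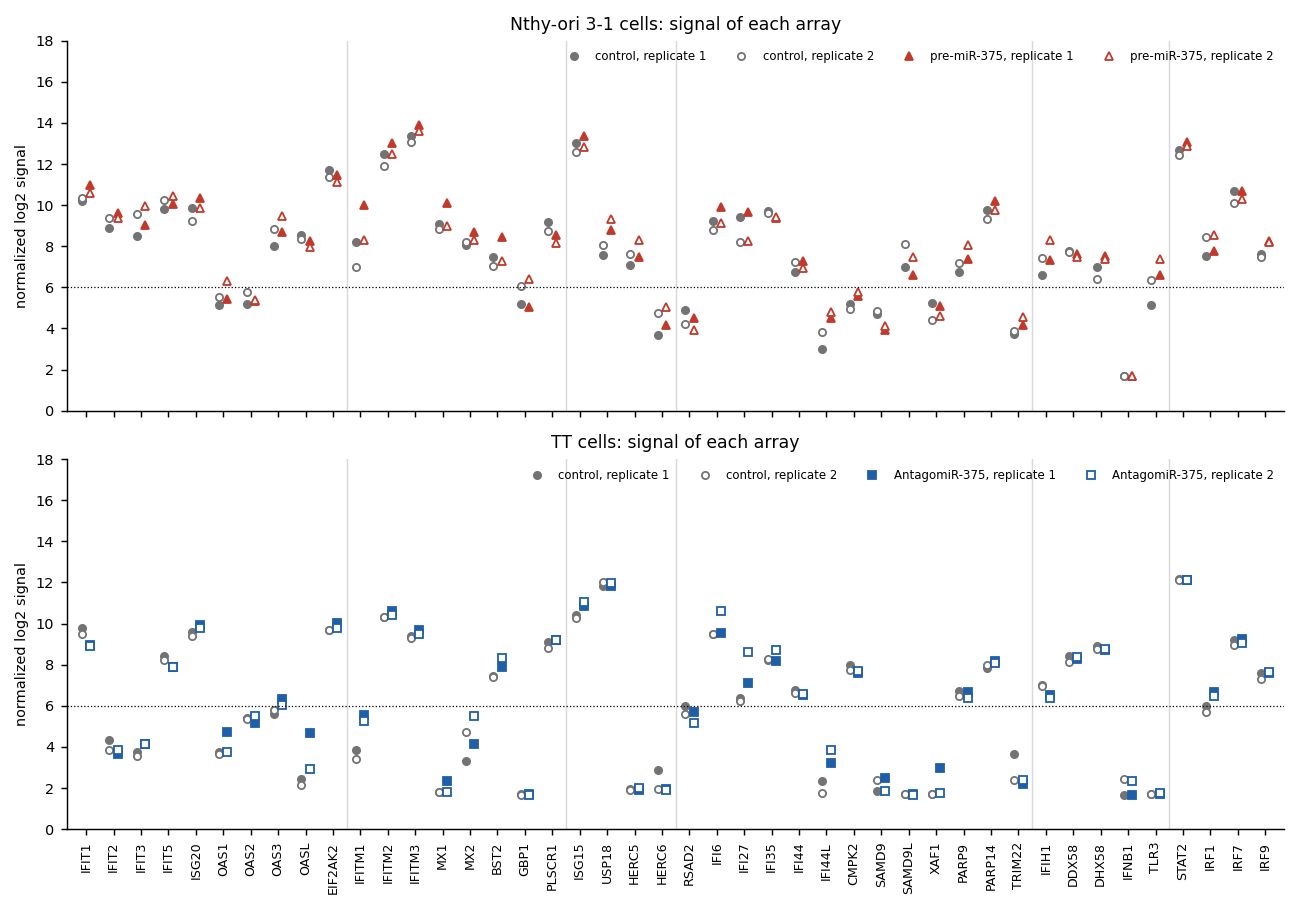
Normalized log2 signal (vertical axes) of the 44 genes, grouped by role, on the 4 Nthy-ori 3-1 arrays and the 4 TT arrays. Each point is 1 array, filled for replicate 1 and open for replicate 2, and the dotted line marks the minimum of 6. In TT cells MX1, HERC5, SAMD9L, GBP1 and TLR3 sat at 1.67 to 2.32.

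What extra miR-375 did to these genes was asked in Nthy-ori 3-1 cells. Most read higher with premiR-375: 30 of 44 (68.2%) were higher in both pairs, against 32.5% of all gene names, and 8 (18.2%) were lower in both, against 27.8%. At an unadjusted p under 0.05 in limma 16 genes (36.4%) were higher, against 7.48% of all gene names, and 2 (4.55%) were lower, against 7.4%. The median log2 fold change of the 44 was 0.43, with 0.45 and 0.29 in the 2 pairs, and that of all gene names was 0.004. Over the 33 well measured genes the median was 0.47, against 0.05 over all gene names as bright. No gene passed adjustment over all 50594 probes, where the lowest adjusted p of any probe was 0.318 and 7257 probes had an unadjusted p under 0.05. The fit had 1 residual degree of freedom. Where only probes with an average of at least 6 entered it, 13 of the 33 tested genes had an adjusted p of at most 0.05. Of these, 12 (36.4%) were higher, against 9.16% of gene names, and 1 (3.03%), PLSCR1, was lower, against 10.1%. With normexp background correction IFITM1, USP18 and TLR3 passed, all higher (6.82% of the 44, against 1.28% higher and 2.18% lower of all gene names), and with the deposited log2 values USP18 alone did (2.27%, against 0.38% and 0.881%). Without the slide as a block 5 genes had an unadjusted p under 0.05 in place of 18. Without pair 1 the number was 11, and without pair 2 it was 8, in fits that take the spread from the TT arrays and assume that the lone pair varies alike.

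**Figure D2:**
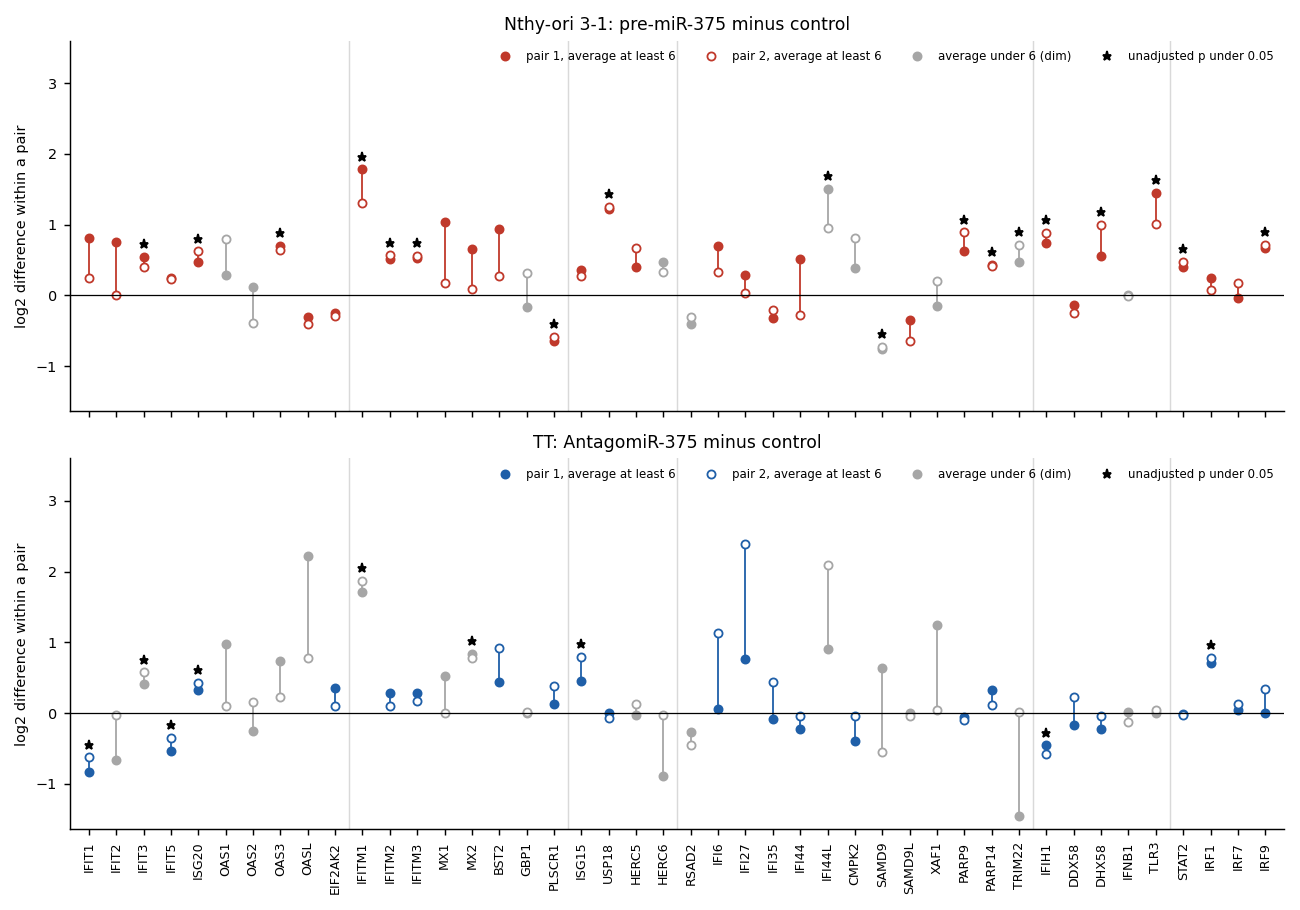
Log2 difference of treated minus control within each slide pair (vertical axes) for the 44 genes, in Nthy-ori 3-1 cells with premiR-375 and in TT cells with AntagomiR-375. Filled points are pair 1, open points pair 2, grey marks genes with an average under 6, and stars mark an unadjusted p under 0.05. The difference lay above 0 in both pairs for 30 genes in Nthy-ori 3-1 cells and for 24 in TT cells.

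Among the sensors, IFIH1, the helicase that binds long double-stranded RNA, read 6.59 and 7.44 in controls and 7.33 and 8.32 with premiR-375. The groups overlapped, but each treated array was above the control on its slide, by 0.74 and 0.89. The log2 change was 0.81 ± 0.10 (SE). Its 60-base probe lies at chr2:163128806-163128865 of hg19. TLR3, which senses double-stranded RNA in endosomes, read 5.15 and 6.35 in controls and 6.60 and 7.36 with premiR-375 (probe at chr4:187005890-187005949 of hg19). Both treated arrays were above both controls, and the change was 1.23 ± 0.17, or 2.34-fold, with an adjusted p of 0.318 in limma. DHX58, a relative of the helicases that lacks their signalling domain, read 6.98 and 6.41 against 7.53 and 7.40, a change of 0.77 ± 0.17, and its groups did not overlap. DDX58 did not follow: it read 7.77 and 7.74 against 7.63 and 7.49, a change of -0.20 ± 0.09. Thus 3 of the 5 genes (60%) in the list of sensors and their ligand were higher at an unadjusted p under 0.05, against 7.48% of all gene names. None of the 5 was lower at that threshold. The ligand, IFNB1, stayed under background.

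Of the 4 transcription factors 2 (50%) were higher at an unadjusted p under 0.05, against 7.48% of all gene names. IRF9, the DNA-binding partner of STAT2, read 7.60 and 7.50 in controls and 8.28 and 8.21 with premiR-375, a change of 0.69 ± 0.08. STAT2 read 12.67 and 12.43 against 13.07 and 12.90, a change of 0.44 ± 0.08. Neither gene's groups overlapped, so both partners of the complex read higher on each treated array. IRF1 (0.16 ± 0.10) and IRF7 (0.07 ± 0.11), other interferon regulatory factors, had small changes, and IRF7 differed in sign between the pairs.

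The effectors that bind or cleave RNA were mixed. OAS3, a synthetase of the 2-5A signal that activates RNase L, read 8.01 and 8.84 in controls and 8.70 and 9.49 with premiR-375, a change of 0.67 ± 0.08 with 0.70 and 0.65 in the pairs. ISG20, an exonuclease, read 9.88 and 9.22 against 10.35 and 9.84, a change of 0.55 ± 0.10. IFIT3, which stabilises IFIT complexes on viral RNA, read 8.49 and 9.56 against 9.03 and 9.96, a change of 0.47 ± 0.09. In all 3 the groups overlapped across slides while both pairs moved the same way. IFIT1 (0.53 ± 0.22), IFIT2 (0.38 ± 0.28) and IFIT5 (0.24 ± 0.08) were also higher in both pairs but had an unadjusted p over 0.05, IFIT2 by 0.76 and 0.004. The other probe of IFIT2 gave 0.53 (unadjusted p = 0.0424 in limma). OASL, an OAS relative without synthetase activity, read lower, at 8.26 and 7.96 against 8.57 and 8.37 in controls, a change of -0.36 ± 0.09. EIF2AK2, the RNA-activated kinase PKR, read 11.47 and 11.10 against 11.72 and 11.39, a change of -0.27 ± 0.08. Neither had an unadjusted p under 0.05. OAS1 and OAS2 were dim, at 0.54 ± 0.20 and -0.13 ± 0.20. Other probes of OAS2, also dim, gave -0.23 and 0.22.

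All 4 genes around ISG15, the ubiquitin-like protein that is coupled to other proteins, read higher in both pairs, against 32.5% of all gene names. USP18, the protease that removes ISG15 and dampens the interferon receptor, had the smallest unadjusted p of the 44 genes (0.00431). It read 7.57 and 8.05 in controls and 8.79 and 9.30 with premiR-375, and the pairs differed by 1.22 and 1.25. The change was 1.23 ± 0.08, or 2.35-fold, with an adjusted p in limma of 0.318, of 0.0289 with normexp and of 0.0434 with the deposited values. Its probe lies at chr22:18659618-18659677 of hg19, and a near copy of the gene exists in the genome, whose share in the signal was not tested. ISG15 (0.31 ± 0.09), HERC5, the ligase that attaches it (0.53 ± 0.12), and the dim HERC6 (0.40 ± 0.09) had an unadjusted p over 0.05. The other probe of HERC6, also dim, gave 0.69 (unadjusted p = 0.0186 in limma).

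Among membrane and GTPase effectors, IFITM1, which blocks fusion of viruses with the cell, had the largest change of the 44 genes, 1.55 ± 0.18 or 2.92-fold. It read 8.22 and 7.01 in controls and 9.9999 and 8.32 with premiR-375, so that both treated arrays were above both controls, if narrowly. The other probe of the gene gave 1.51. The probe shown lies at chr11:315209-315268 of hg19. IFITM2 read 12.51 and 11.91 against 13.03 and 12.48 (0.54 ± 0.08), and IFITM3 13.38 and 13.05 against 13.91 and 13.61 (0.54 ± 0.08). The 3 IFITM genes are close paralogs, and how much their probes share was not tested. PLSCR1, a scramblase of membrane lipids, went the other way, at 9.17 and 8.74 in controls and 8.53 and 8.15 with premiR-375, a change of -0.61 ± 0.08. The GTPases MX1 (0.61 ± 0.32) and MX2 (0.37 ± 0.22) and BST2, which tethers budding viruses (0.60 ± 0.25), were higher mostly in pair 1, by 1.04, 0.65 and 0.94 against 0.18, 0.09 and 0.27 in pair 2. The other probe of BST2 gave 0.62 (unadjusted p = 0.0165 in limma), and that of MX2 gave 0.08. GBP1 was dim and differed in sign between pairs.

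Of the other 13 interferon-stimulated genes 4 (30.8%) were higher and 1 (7.69%) lower at an unadjusted p under 0.05. The shares over all gene names were 7.48% and 7.4%, so the lower share was close to it. PARP9, an ADP-ribosyltransferase relative, read 6.75 and 7.19 in controls and 7.39 and 8.08 with premiR-375 (0.76 ± 0.12). PARP14 read 9.78 and 9.34 against 10.21 and 9.74 (0.42 ± 0.08). IFI44L and TRIM22 were dim, at 3.02 and 3.83 against 4.53 and 4.79 and at 3.72 and 3.85 against 4.19 and 4.57. Each was well above background on 1 of the 2 premiR-375 arrays and on neither control array. With controls set at the lowest signal well above background, the difference was 1.23-fold for IFI44L and 1.02-fold for TRIM22. These are not firm lower bounds, since 1 premiR-375 array was itself not well above background. The log2 change of IFI44L was 0.29 with normexp and 0.22 with the deposited values, and that of TRIM22 was 0.12 and 0.13. SAMD9, also dim, read 4.69 and 4.85 in controls and 3.93 and 4.13 with premiR-375 (-0.74 ± 0.08). The change of SAMD9 was -0.17 with normexp and -0.21 with the deposited values. Its neighbour and paralog SAMD9L, well measured, read 6.97 and 8.13 against 6.62 and 7.48 (-0.50 ± 0.13). IFI35, which forms complexes with another interferon-induced protein, read 9.70 and 9.62 against 9.37 and 9.42 (-0.26 ± 0.09). The mitochondrial protein IFI6 was at 0.51 ± 0.15, the nucleotide kinase CMPK2 at 0.59 ± 0.17, the dim RSAD2 (viperin) at -0.36 ± 0.09, IFI27 at 0.16 ± 0.12, IFI44 at 0.12 ± 0.29 and XAF1 at 0.02 ± 0.15. None of these 6 had an unadjusted p under 0.05.

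**Figure D3:**
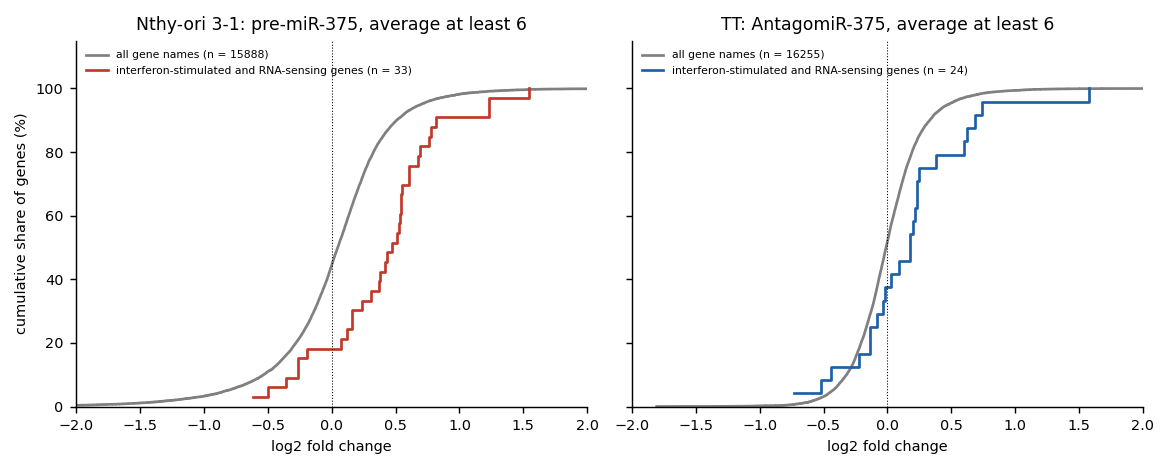
Cumulative share of genes (vertical axis, %) by log2 fold change (horizontal axis) among genes with an average of at least 6, in Nthy-ori 3-1 cells with premiR-375 and in TT cells with AntagomiR-375. The coloured lines are the interferon-stimulated and RNA-sensing genes and the grey lines all gene names. In TT cells the medians were 0.17 against -0.01, and in Nthy-ori 3-1 cells 0.47 against 0.05.

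A further 67 genes of the pathway on the array, upstream and downstream of the 44, were read in the same way. They were chosen with earlier results of these data known, so their shares are not an independent check. With premiR-375, 16 (23.9%) were higher and 3 (4.48%) lower at an unadjusted p under 0.05, against 7.48% and 7.4% of all gene names, and their median change was 0.22. None had an adjusted p of at most 0.05. Of the 29 further interferon-stimulated genes 10 (34.5%) were higher and 1 (3.45%) lower. They included RTP4 (1.43 ± 0.08), the antigen-processing genes PSMB9 (1.21 ± 0.21) and TAP1 (1.05 ± 0.13), APOL6 (1.33 ± 0.16) and the restriction factor TRIM5 (0.98 ± 0.10). Of the 22 receptors, kinases and adaptors 3 (13.6%) were higher and 2 (9.09%) lower, the latter close to the share over all gene names. The interferon receptor chains were opposite in sign, IFNAR2 at 0.57 ± 0.09 and IFNAR1 at -0.53 ± 0.10, and the kinase JAK2 was at -0.59 ± 0.13. A mixed list of 8 genes, restraining genes and genes of ISG15 transfer, had 2 (25%) higher and 0 lower, against 7.48% and 7.4% of all gene names. They were UBA7, which activates ISG15 for transfer (0.58 ± 0.08), and TRIM21 (0.68 ± 0.15). Of 8 ligands on the array only the dim IFNE had an unadjusted p under 0.05.

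Blocking the resident miR-375 was asked about in TT cells. Fewer of the 44 genes stood out: 6 (13.6%) were higher at an unadjusted p under 0.05, against 4.92% of all gene names, and 3 (6.82%) were lower, against 4.89%. Higher in both pairs were 24 (54.5%), against 31.2% of gene names, and lower in both 11 (25%), against 30.9%. Among the 24 well measured genes 3 were higher and 3 lower at that p, against 879 and 778 of 16255 gene names as bright. In both pairs 13 of these 24 were higher and 8 lower, against 5183 and 5887 of the 16255. The median log2 fold change of the 44 was 0.13, with 0.03 and 0.11 in the 2 pairs, against -0.0003 over all gene names, and without pair 2 it was 0.03. No gene passed adjustment. The lowest adjusted p of any of 50587 probes was 0.512, and 4920 probes had an unadjusted p under 0.05. RNA integrity numbers were 8 for both TT controls and 9 for both treated samples, which cannot be told apart from the treatment.

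The 6 genes higher at an unadjusted p under 0.05 were IFITM1, MX2, IRF1, ISG15, ISG20 and IFIT3. IFITM1 read 3.85 and 3.39 in controls, not well above background, and 5.56 and 5.26 with AntagomiR-375, a fitted difference of 3.45-fold in the processed signal. The size depended on the background treatment, with a log2 change of 0.44 with normexp and 0.59 with the deposited values. Its other probe, not well above background on any TT array, gave 0.94. MX2, dim in this line, read 3.30 and 4.74 against 4.14 and 5.52 (0.81 ± 0.08, and 0.21 with normexp), yet the other probe of MX2 gave -0.07 at an average of 6.24. The transcription factor IRF1 read 5.97 and 5.68 in controls and 6.67 and 6.46 with AntagomiR-375 (0.74 ± 0.09). ISG15 read 10.42 and 10.28 against 10.88 and 11.07 (0.63 ± 0.14), and ISG20 9.59 and 9.38 against 9.92 and 9.81 (0.38 ± 0.09). The dim IFIT3 read 3.74 and 3.56, not well above background, against 4.15 and 4.14, a fitted difference of 1.41-fold. Its log2 change was 0.06 with normexp and 0.12 with the deposited values. In IFITM1, IRF1, ISG15, ISG20 and IFIT3 the groups did not overlap. In MX2 they did. The 6 genes were picked by their p-value on these same arrays, so the separation is no added support. Its share over all gene names was not counted. IFI27 had the largest difference among well measured genes, 1.58 ± 0.57, but most of it lay in 1 array, at 6.36 and 6.22 in controls against 7.12 and 8.62. Without pair 2 it was 0.76 and without pair 1 it was 2.40. IFI6 likewise read 9.48 and 9.50 against 9.55 and 10.63 (0.60 ± 0.37). BST2 read 7.47 and 7.39 against 7.91 and 8.32 (0.68 ± 0.19), and its other probe gave 1.02.

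The 3 genes lower at an unadjusted p under 0.05 were IFIT1, IFIT5 and IFIH1. IFIT1, which binds RNA with an uncapped or incompletely capped end, read 9.80 and 9.51 in TT controls and 8.97 and 8.89 with AntagomiR-375 (-0.73 ± 0.11). IFIT5, of the same family, read 8.42 and 8.25 against 7.88 and 7.90 (-0.44 ± 0.10). IFIH1 read 6.996 and 6.97 against 6.54 and 6.39 (-0.52 ± 0.09). In all 3 both treated arrays were below both controls, again in genes picked by their p-value on these same arrays. CMPK2 read 7.98 and 7.73 against 7.58 and 7.69 (-0.22 ± 0.15) and IFI44 6.76 and 6.63 against 6.54 and 6.59 (-0.14 ± 0.10), both with an unadjusted p over 0.05. The other well measured genes lay between -0.13 for DHX58 and 0.25 for PLSCR1, and USP18 was at -0.03 ± 0.09. The dim OAS2 was at -0.05, and other probes of it gave -0.59 and -0.79 (unadjusted p = 0.0106 in limma for the latter). Of the 67 further pathway genes 4 (5.97%) were higher and 0 lower at an unadjusted p under 0.05, against 4.92% and 4.89% of all gene names. Their median was 0.0006 and none passed adjustment.

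Since supplying and blocking an miRNA should move a responsive gene in opposite directions, the premiR-375 effect minus the AntagomiR-375 effect was tested over all 8 arrays. This difference also departs from 0 where 1 line alone moves, so it does not by itself show opposite movement. Reagent, dose, line and slide cannot be told apart in this difference. It had an unadjusted p under 0.05 for 13 of the 44 genes (29.5%), against 17.3% of all gene names. Of the 13, 9 were above 0 and 4 below, against 3211 above and 3077 below of 36324 gene names. The share below was thus close to that over all gene names. None of the 44 passed adjustment, where the lowest adjusted p of any probe was 0.149. Both IFIH1 and USP18 were at that lowest adjusted p. For IFIH1 the difference was 1.33 ± 0.14, from 0.81 with premiR-375 and -0.52 with AntagomiR-375. For USP18 it was 1.27 ± 0.12, from 1.23 and -0.03. IFIT1 (1.26 ± 0.27) and IFIT5 (0.68 ± 0.14) also differed in sign between the lines, while TLR3 (1.20 ± 0.21) was not well above background in TT cells. PLSCR1 was at -0.86 ± 0.16, from -0.61 and 0.25, and IRF1 at -0.58 ± 0.14, from 0.16 and 0.74. IFITM1 read higher with either reagent, and its effects differed by -0.24 ± 0.23. With normexp IFIT1, IFIH1, USP18, TLR3 and PLSCR1 passed adjustment, 11.4% of the 44 against 5.72% of all gene names, and with the deposited values IFIH1, USP18 and TLR3 did, 6.82% against 3.8%. Without the slide as a block, the number at an unadjusted p under 0.05 was 6 in place of 13.

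Between the control arrays of the lines the differences were far larger. They share their arrays with both treatment comparisons, and each slide held a single line, so line and slide cannot be told apart. In TT controls 23 of the 44 genes (52.3%) were lower than in Nthy-ori 3-1 controls at an adjusted p of at most 0.05 in limma, against 12.6% of all gene names, and 3 (6.82%) were higher, against 13.6%. The median log2 difference was -1.64, against -0.05 over all gene names, and -1.42 with the 10 genes that have a bound set to it. The calls rested on both TT control arrays. Without replicate 1 of the TT controls none of the 44 passed, and without replicate 2 MX1, MX2 and OASL did, while leaving out an Nthy-ori 3-1 control left 23 or 24.

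**Figure D4:**
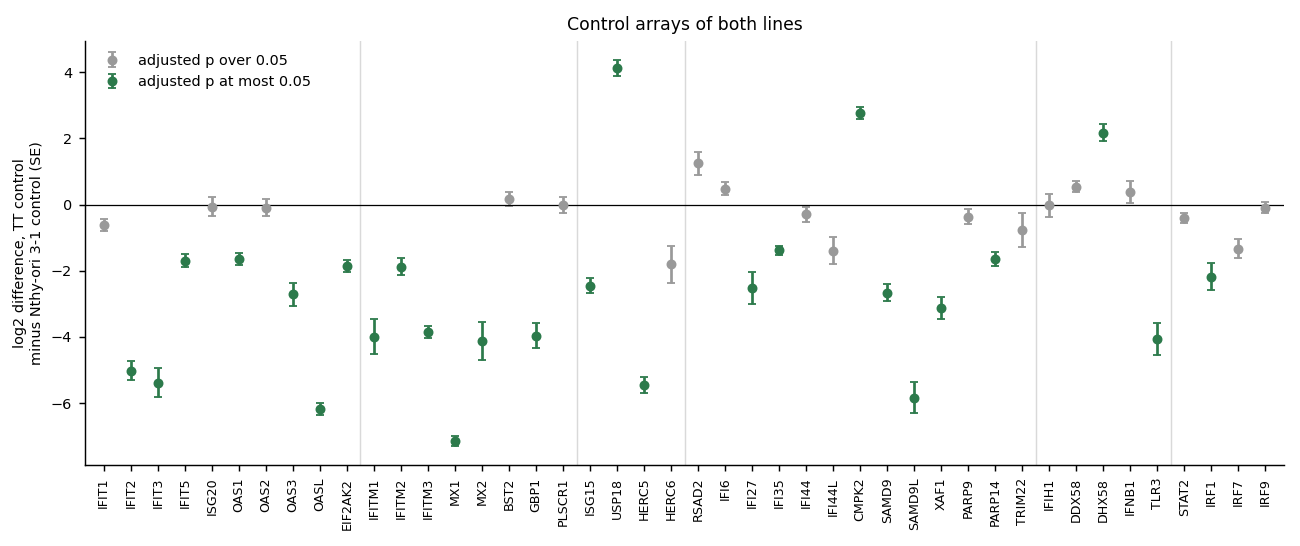
Log2 difference of TT control minus Nthy-ori 3-1 control (vertical axis) for the 44 genes by role, with bars of 1 SE. Green marks an adjusted p of at most 0.05. Only USP18, CMPK2 and DHX58 were called above 0, at 4.13, 2.77 and 2.17.

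Of the 23 lower genes 13 were in the lists of RNA-binding and of membrane and GTPase effectors. They were 7 of 10 (70%) and 6 of 8 (75%) of these lists, against 52.3% of the 44 and 12.6% of all gene names. MX1, a GTPase that traps viral nucleocapsids, read 9.06 and 8.82 in Nthy-ori 3-1 controls and 1.79 and 1.80 in TT controls, a difference of at least 46.5-fold (adjusted p = 0.0013 in limma; probe at chr21:42831014-42831073 of hg19). OASL was at least 33.6-fold lower, SAMD9L at least 17.8-fold and HERC5 at least 15.6-fold. For IFIT3 and IFITM1 the bound was set by their own signal, so it equals the fitted difference, 41.5-fold and 15.9-fold lower. Fainter genes had smaller bounds, at least 5.11-fold for TLR3, 4.71-fold for GBP1 and 2.59-fold for SAMD9, because their own level was nearer the floor. XAF1 came to 2.72-fold, not a firm bound, since only 1 Nthy-ori 3-1 control array was well above background. These bounds hold for the processed signal. The other background treatments gave smaller log2 differences, for MX1 -3.22 with normexp and -3.85 with the deposited values, for IFIT3 -2.92 and -3.56, and for TLR3 -1.09 and -1.51. IFIT2 read 8.88 and 9.37 against 4.33 and 3.86 (-5.02 ± 0.29, and -2.90 with normexp). IFITM3 was bright in both lines, at 13.38 and 13.05 against 9.41 and 9.32 (-3.85 ± 0.18). MX2 read 8.06 and 8.20 against 3.30 and 4.74 (-4.11 ± 0.58, -1.99 with normexp, -3.39 without replicate 1 of the TT controls and -4.83 without replicate 2), which its other probe did not show (0.07). OAS3 read 8.01 and 8.84 against 5.60 and 5.82 (-2.72 ± 0.36, and -1.78 with normexp), and IFI27 9.40 and 8.22 against 6.36 and 6.22 (-2.52 ± 0.48). IFI27 was at -1.93 without replicate 1 of the Nthy-ori 3-1 controls and at -3.11 without replicate 2. The kinase EIF2AK2 (-1.86 ± 0.17), ISG15 (-2.45 ± 0.22), IRF1 (-2.18 ± 0.40), IFITM2, IFIT5, PARP14, OAS1 and IFI35 completed the called genes.

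The 3 genes higher in TT controls included a brake and a sensor. USP18 read 11.84 and 12.05 in TT and 7.57 and 8.05 in Nthy-ori 3-1 controls, 17.5-fold higher (adjusted p = 0.00467 in limma), a log2 difference of 4.13, and of 3.49 with the deposited values. CMPK2 read 7.98 and 7.73 against 5.20 and 4.96 (2.77 ± 0.18, and 1.54 with the deposited values), although its other probe was not well above background on any array. DHX58 read 8.93 and 8.79 against 6.98 and 6.41 (2.17 ± 0.26, and 1.48 with the deposited values). USP18 and DHX58 also read higher in Nthy-ori 3-1 cells given premiR-375, a comparison that uses the same Nthy-ori 3-1 control arrays. Other sensors and factors differed less. IFIH1 was at -0.03 ± 0.35, IRF9 at -0.09 ± 0.16, STAT2 at -0.41 ± 0.15 and PLSCR1 at -0.004 ± 0.24. DDX58 read 7.77 and 7.74 in Nthy-ori 3-1 and 8.44 and 8.15 in TT controls (0.54 ± 0.16), and its other probe gave -1.08. BST2 (0.17 ± 0.22) was of no fixed sign, since its other probe gave -0.36. IFI6 read 9.22 and 8.80 against 9.48 and 9.50 (0.48 ± 0.20). PARP9 was at -0.36 ± 0.22, and its other probe gave -2.52. Of the 67 further pathway genes 22 (32.8%) were lower in TT controls and 6 (8.96%) higher at an adjusted p of at most 0.05, against 12.6% and 13.6% of all gene names.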

How the data were processed

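The labels put 2 arrays in each of 4 groups. For each array the authors deposited the intensity of every spot from Feature Extraction 10.10.1.1, not normalized between arrays. The authors also deposited a table of log2 values, which follow the median spot signal and share 1 distribution within each line. The processed intensity was taken to log2 without control spots and outlier spots (341 to 428 per array), averaged per probe and quantile normalized over the 8 arrays with limma 3.58.1 in R 4.3.3. Each line was fitted with lmFit and eBayes with the shared slide, which the file headers and the replicate number give, as a block. Differences between replicates in treated and control cells correlated at r = 0.785 in Nthy-ori 3-1 and 0.330 in TT cells. Control arrays of both lines were compared without a block, and p-values were adjusted (Benjamini-Hochberg) across every probe of a fit. The brightest probe stood for a gene. A bound set a probe not well above background at the lowest signal well above it on that array, or at its own signal where that was higher. The brighter group was averaged as read, so a bound is not firm where 1 of its arrays was not well above background. Named genes are those with an unadjusted p under 0.05 and 1 direction in both pairs, the 5 largest changes each way among well measured genes, and the 6 largest each way between lines. Members and lists were chosen with earlier results of these data known. The steps were tested on simulated data. The labels give polyA RNA and doses of 5 and 20 nM, and the methods total RNA and other doses. Alternatives were other background corrections, normalizations, filters, fits and left-out arrays.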

Additional observations from a re-analysis of the deposited data

How the results depend on the processing

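With 2 arrays a group and 1 residual degree of freedom per line, calls depended on how limma pooled the spread, and the cause of each shift was not tested. The changes of the genes named with premiR-375 and with AntagomiR-375 kept their sign under every alternative run. For premiR-375 0 of the 44 genes had an adjusted p of at most 0.05. This went to 3 with normexp, 1 with the deposited values and 13 where only probes averaging at least 6 were fitted. In that last fit fewer probes were tested, and the spread pooled over probes counted for 3.74 degrees of freedom in place of 0.99. The number at an unadjusted p under 0.05 went from 18 to 10 with scaling to the 75th percentile. Without the replicate block it was 5, and without a pair 8 to 11. The median was 0.30 with normexp, 0.31 with the deposited values and 0.29 to 0.45 without a pair. For AntagomiR-375 the median was 0.0429 with normexp, 0.0734 with the deposited values, 0.0692 with the mean of all probes of a gene and 0.0333 to 0.105 without a pair, and the replicate block moved no count by over 1.5 times. For the difference of the effects 5 genes passed with normexp and 3 with the deposited values, and without the replicate block 6 had an unadjusted p under 0.05. Between lines the median was -0.55 with normexp, -0.92 with the deposited values, -1.51 at the 75th percentile, -0.97 with only probes averaging at least 6 (17 genes passing and 19 at an unadjusted p under 0.05, of 28 tested) and -1.69 to -1.47 without a control array. Genes passing then numbered 0 to 24, 0 without replicate 1 of the TT controls. Direction turned for BST2 (-0.0779 deposited, -0.0953 by the mean of probes, and without a control array -0.0642 to 0.41, the lowest without replicate 2 of the Nthy-ori 3-1 controls) and DDX58 (-0.27 by the mean of probes). No member could be tested for an outlying array, since groups held 2 arrays. Differences under background had only a bound, which for IFIT3 and IFITM1 in TT cells was the fitted difference.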
